A study of Mus musculus with 231 samples.

Results

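mmu-miR-10a-5p, mmu-miR-10b-5p, mmu-miR-196a-5p and mmu-miR-196b-5p are the mature 5′ arm miRNAs of the miR-10 and miR-196 families, whose genes lie inside the Hox clusters. They were chosen by name, and all 4 were found among the 1863 mature miRNAs of the training count table and in both tables of normalized values. The study followed microRNAs in peripheral blood mononuclear cells (PBMC) by small RNA sequencing while acute myeloid leukemia (AML) developed in mice. In CM mice the fusion gene Cbfb-MYH11, the mouse form of the inv(16) fusion of human AML, is switched on from the Cbfb56M/+ allele by Mx1-Cre, which poly(I:C) induces in blood-forming and other interferon-responsive cells. All mice were C57BL/6, and both arms received poly(I:C) at 14 mg/kg every other day for 7 doses from an age of 6 to 8 weeks.

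The training cohort comprised 7 CM mice with 53 libraries and 7 Ctrl mice with 76 libraries, sampled at times labelled 0 to 10 and read as months. The series description places month 0 ahead of induction. The validation cohort comprised 10 CM mice with 60 libraries and 6 Ctrl mice with 42 libraries, at sampling points labelled 1 to 7 and L. These arms follow the labels of the samples. The series description counts 9 CM and 7 Ctrl mice, so the arm of 1 mouse is in doubt. CM mice carry the genotype label CHW and Ctrl mice the labels HW, CW or WT. No source used here explains the codes. The labels describe Ctrl mice as littermates without the transgene, whereas by the study's methods control littermates can carry Cbfb56M/+, floxed miR-126 alleles or both, without Mx1-Cre. Which of these each Ctrl mouse carried is therefore not known. In these bulk samples a lower share of cells of one type and less RNA per cell cannot be told apart.

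Hox genes encode transcription factors that pattern the body axis, and in blood they are active mainly in stem and progenitor cells and are turned down as cells mature. The miRNA genes among them repress messenger RNAs, several of which come from the Hox clusters themselves. miR-196 pairs almost fully with Hoxb8 mRNA and directs its cleavage, and high miR-196b is known from leukemias with rearranged MLL, in which the HOXA genes are active. The sequences below, from RefSeq tables for GRCm38.p6, are shown because the members of each family differ at only one base. Capitals mark the seed, bases 2 to 8 from the 5′ end, through which a miRNA chooses most of its targets.

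mmu-miR-10a-5p: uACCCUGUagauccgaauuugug
mmu-miR-10b-5p: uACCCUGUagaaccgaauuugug
mmu-miR-196a-5p: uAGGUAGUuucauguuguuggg
mmu-miR-196b-5p: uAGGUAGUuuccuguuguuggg

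Both miR-10 members carry the seed ACCCUGU and both miR-196 members the seed AGGUAGU. Counted from the 5′ end, miR-10a-5p and miR-10b-5p differ by U12A over 23 bases, and miR-196a-5p and miR-196b-5p by A12C over 22 bases. Since the seeds are the same within a family, each difference lies outside them. In the RefSeq table mature miR-10a-5p lies at chr11:96317186-96317208 on the plus strand, and its hairpin lies within the span of Hoxb3, 992 bases from Hoxb4. Mature miR-10b-5p lies at chr2:74726074-74726096 on the plus strand, and its hairpin lies within the overlapping spans of Hoxd3 and Hoxd4. Mature miR-196b-5p lies at chr6:52230129-52230150 on the minus strand, between Hoxa9 and Hoxa10, with 2710 and 1031 bases from its hairpin to these genes. Mature miR-196a-5p comes from 2 genes, at chr11:96265187-96265208 near Hoxb9 and at chr15:102973365-102973386 between Hoxc10 and Hoxc9, both on the plus strand.

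Training libraries held 1792809 to 7958411 counts each, so that 3 counts correspond to 0.377 to 1.67 CPM, and these limits cover counting error only. Levels are given as CPM, the counts of a miRNA scaled to the size of its library after TMM scaling over the training libraries, a step that sets most miRNAs to a common level. White blood cell markers were present throughout: miR-150-5p of lymphocytes, miR-223-3p of myeloid cells and miR-142a-3p of all white blood cells were above 0 in every training library. So was miR-451a of erythroid cells, with a median of 47600 CPM against 32100 CPM for miR-150-5p. The non-blood miR-143-3p, miR-1a-3p, miR-203-3p, miR-205-5p and miR-200c-3p were above 0 in every library too, whereas miR-133a-3p and miR-214-3p were not. Presence alone therefore does not mark PBMC. Labels of mice 3334 (CM) and 3335 (Ctrl) raise a doubt. The serial numbers in the library titles run through the early months of one mouse into the late months of the other, and 2 of their month 6 libraries carry numbers outside the run of their G number, a label in the title that is not explained. miR-126a-3p was at 145.9, 230.7, 142.3 and 273.5 CPM in mouse 3334 and at 116.3, 103.5, 87.06 and 95.71 CPM in mouse 3335 at months 0, 1, 3 and 4. At months 5 and 6 the order was the other way, with 143.7 and 163.3 CPM in mouse 3334 and 257.8 and 581.3 CPM in mouse 3335. At later times it was at 2552 CPM in mouse 3334 and at 90.72 to 175.3 CPM in mouse 3335. The labels were kept, and results were also computed without both mice. The Ctrl library of mouse 3349 at month 2 stood apart too. It was the shallowest, and its median Spearman correlation with the other libraries over 331 miRNAs was 0.85, against a median of 0.938 for the rest. Only the last libraries of CM mice 3334 and 3338 were lower.

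The members differed widely in level. miR-10a-5p ranked 29th among all miRNAs by mean CPM, miR-10b-5p 193rd and miR-196a-5p 585th, with miR-196b-5p above miR-10b-5p. miR-10a-5p ranged from 1097 to 19870 CPM with a median of 7220 over all training libraries, miR-196b-5p from 26.9 to 4455 with a median of 180.1, and miR-10b-5p from 14.7 to 279 with a median of 70.8. miR-196a-5p reached at most 12.1 CPM, and 84 libraries held 3 counts or fewer, 33 of the 53 CM and 51 of the 76 Ctrl libraries. The order held in nearly every library: miR-10a-5p exceeded miR-196b-5p in all but 1, miR-196b-5p exceeded miR-10b-5p in all but 6 and miR-10b-5p exceeded miR-196a-5p in each. The median ratios of these pairs were 37.7, 2.46 and 76.1. All 4 miRNAs have nearly the same length, so that no length scaling separates these levels.

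The members of a family were counted apart although one base separates them. The library with the most miR-196b-5p, CM mouse 3341 at month 6, held 12952 counts of it and 2 counts of miR-196a-5p, or 0.0154%. Of the miR-10 family, miR-10b-5p amounted to 0.274% to 3.21% of miR-10a-5p, with a median of 0.961%. miR-10b-5p and miR-10a-5p correlated over the training libraries at a Pearson r of 0.591, as a description across libraries that share mice. The separately normalized table that the authors deposited gave correlated values for the same libraries, with r of 0.989 for miR-10a-5p, 0.993 for miR-10b-5p, 0.995 for miR-196b-5p and 0.886 for the sparse miR-196a-5p. Levels nevertheless differed by a median factor of 1.13 for miR-10b-5p and 0.887 for miR-196b-5p.

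**Figure D1:**
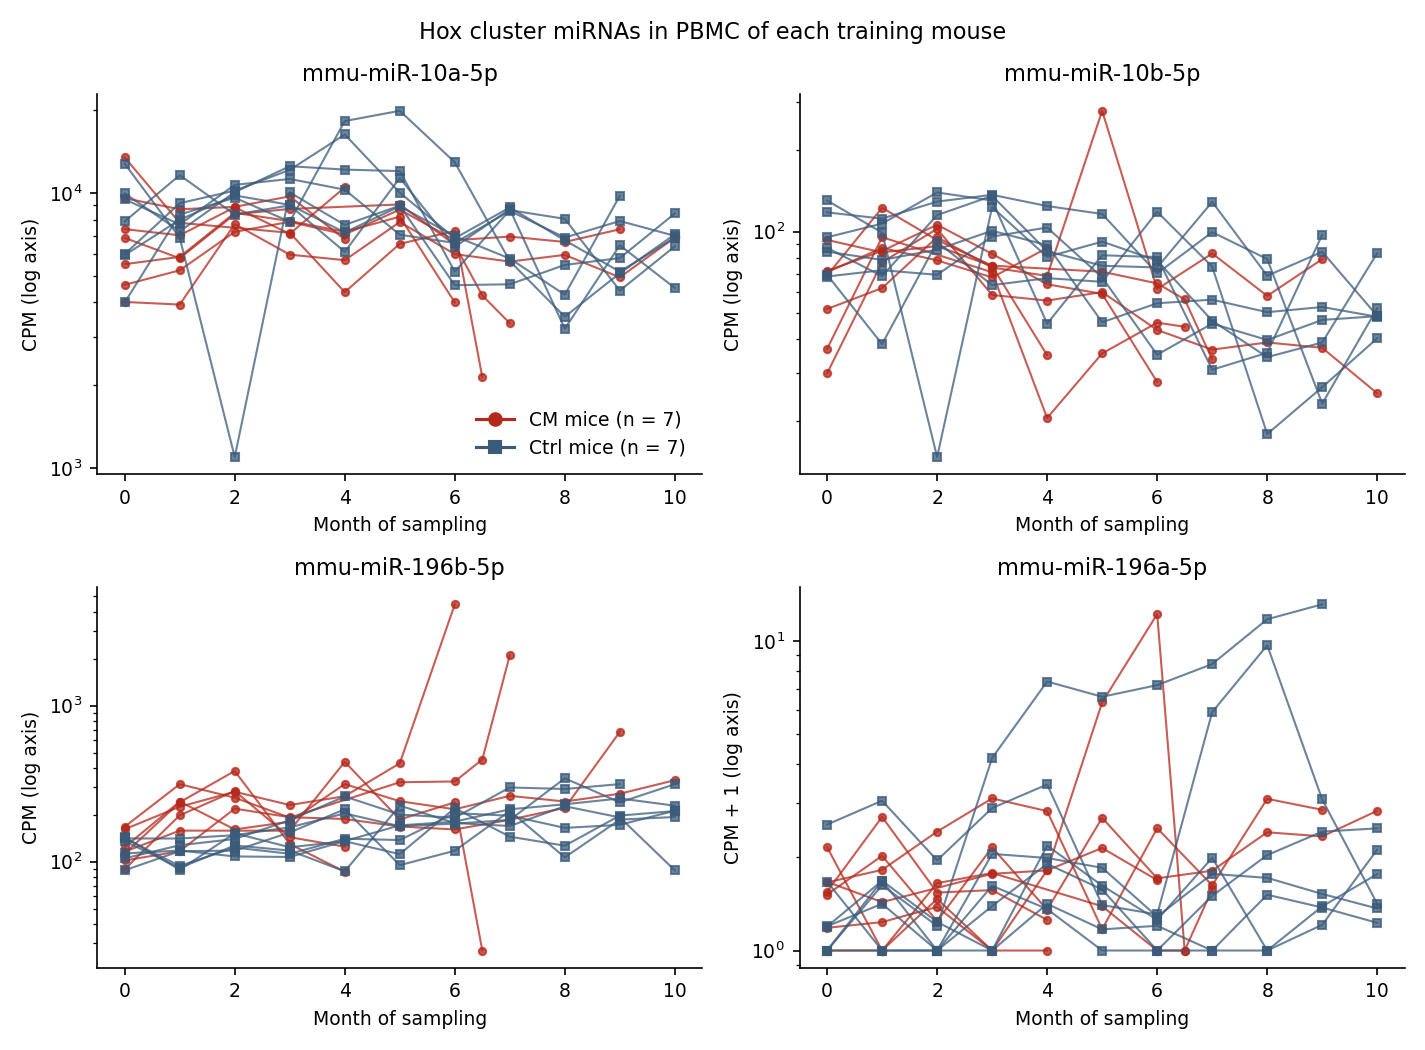
CPM of the 4 miRNAs (log axes, CPM + 1 for miR-196a-5p) against the month of sampling, with one line per training mouse, CM in red circles and Ctrl in blue squares. miR-196b-5p lies above every Ctrl library in 6 of 7 CM mice at month 1 and in all 6 at month 2, and spreads from 26.9 to 4455 CPM in the last libraries, and the Ctrl library of mouse 3349 at month 2 is the low point of both miR-10 panels.

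The first question was whether the arms differed at each month. The arms were compared with edgeR's quasi-likelihood test over all miRNAs that passed the low count filter, and a miRNA was called at a Benjamini-Hochberg adjusted p under 0.05. miR-196b-5p, whose gene neighbours the leukemia-associated Hoxa9, was called higher in CM mice at months 1 and 2, miR-10b-5p was called lower at month 3, and miR-10a-5p was called at no month. All 3 calls were lost with the G number of the titles in the fit (adjusted p = 0.139, 0.137 and 0.452). These fits compare the arms only within the 3, 2 and 1 of 7 G numbers that held both arms at these months. At month 3 the shared G number held only the libraries of CM mouse 3334, whose labels are in doubt, and Ctrl mouse 3339. The fitted differences were 0.63, 1.31 and −0.73. Resting on so few libraries, they show neither that the differences vanish nor that they persist. miR-196a-5p did not pass the filter in any training comparison and has no test there, so the 3 tested members are not all members.

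At month 0 miR-196b-5p had a lowest, median and highest level of 89.4, 115.7 and 167.2 CPM in the 7 CM libraries and 87.9, 135.1 and 143.6 CPM in the 7 Ctrl libraries. The ranges overlapped, with 2 CM libraries above all Ctrl libraries, and the log2 difference between CM and Ctrl was −0.02 ± 0.16 (SE, adjusted p = 0.98). At this month 1 of 478 miRNAs was called, 0.209% of those tested, and none of the 3 members. miR-10b-5p was at 30.0, 68.8 and 93.1 CPM in CM against 68.2, 87.1 and 130.2 CPM in Ctrl, a difference of −0.65 ± 0.24 that was not called (adjusted p = 0.261). The 3 CM libraries below all Ctrl libraries were those of mice 3368, 3334 and 3370, at 30.0, 36.9 and 51.8 CPM.

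At month 1 miR-196b-5p had a lowest, median and highest level of 116.6, 224.5 and 313.3 CPM in CM libraries and 88.7, 116.6 and 140.5 CPM in Ctrl libraries. In 6 of the 7 CM mice it exceeded every Ctrl library, and the log2 difference was 0.904 ± 0.195 (SE, adjusted p = 0.00583). At this month 27.5% of 472 miRNAs were called, so that one call among 3 members is close to the background. miR-10a-5p was at 3928, 5853 and 8718 CPM in CM against 6873, 7986 and 11600 CPM in Ctrl. With 4 CM libraries below all Ctrl libraries, its difference of −0.445 ± 0.172 narrowly missed the threshold (adjusted p = 0.0662). miR-10b-5p differed by 0.05 ± 0.21 (adjusted p = 0.883).

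At month 2 miR-196b-5p lay between 160.7 and 380.8 CPM in the 6 CM libraries, with a median of 268.4, and between 107.9 and 151.9 CPM in the 7 Ctrl libraries, with a median of 126.9. The arms did not overlap, which held for 6.86% of the 481 miRNAs tested in either direction, and the log2 difference was 1.00 ± 0.18 (SE, adjusted p = 0.00352). Without TMM scaling the arms did overlap, since 1 Ctrl library reached 206.9 CPM, and 5 of the 6 CM libraries remained above all Ctrl libraries. At this month 13.5% of miRNAs were called. Leaving out the Ctrl library of mouse 3349 gave 1.045 for miR-196b-5p (adjusted p = 0.0021). The same library moved miR-10a-5p from −0.05 to −0.25 (adjusted p = 0.94 and 0.0785).

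At month 3 the difference of miR-196b-5p was 0.41 ± 0.17 (adjusted p = 0.0961), with 129.5, 180.1 and 230.4 CPM in CM against a median of 123.5 and a highest level of 184.0 CPM in Ctrl. At this month miR-10b-5p, the sparser member of its family, was called lower. It was at 58.3, 73.7 and 82.7 CPM in CM against 63.5, 123.1 and 136.6 CPM in Ctrl, and 6 of the 7 Ctrl libraries exceeded every CM library. The log2 difference was −0.58 ± 0.16 (SE, adjusted p = 0.0179), while 22.0% of 455 miRNAs were called. miR-10a-5p differed by −0.346 ± 0.125 (adjusted p = 0.0569), with 4 CM libraries below all Ctrl libraries.

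At later months no member was called. At month 4, where 0.837% of 478 miRNAs were called, the differences were 0.52 ± 0.36 for miR-196b-5p, −0.58 ± 0.32 for miR-10b-5p and −0.62 ± 0.30 for miR-10a-5p, with adjusted p of 0.461, 0.369 and 0.307. At month 5 edgeR called 0.0% of 505 miRNAs, although 21.6% had an unadjusted p under 0.05 and DESeq2 called 18. miR-196b-5p was at 167.8, 186.1, 243.7, 322.4 and 426.4 CPM in the 5 CM libraries, and 3 of them exceeded the highest Ctrl library at 228.4 CPM. The difference of 0.80 ± 0.28 was not called (adjusted p = 0.152). Without mice 3334 and 3335 it was 1.02 and called (adjusted p = 0.0444), where 53 of 511 miRNAs were called. miR-10b-5p reached 279 CPM in CM mouse 3370 at month 5 against 35.5 to 71.1 CPM in the other 4 CM libraries, so its difference turned from 0.39 to −0.41 without that mouse.

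At month 6 miR-196b-5p was at 160.6, 216.3, 239.7, 326.2 and 4455 CPM in the 5 CM libraries, against 117.4 to 220.0 CPM in Ctrl libraries. One library, that of mouse 3341, stood far above the others. The log2 difference of 2.659 ± 0.775 was not called (adjusted p = 0.416) and was 0.31 without that mouse (adjusted p = 0.908). Neither edgeR nor DESeq2 called any miRNA at this month (0.0% of 444), and 31 had an unadjusted p under 0.05.

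**Figure D2:**
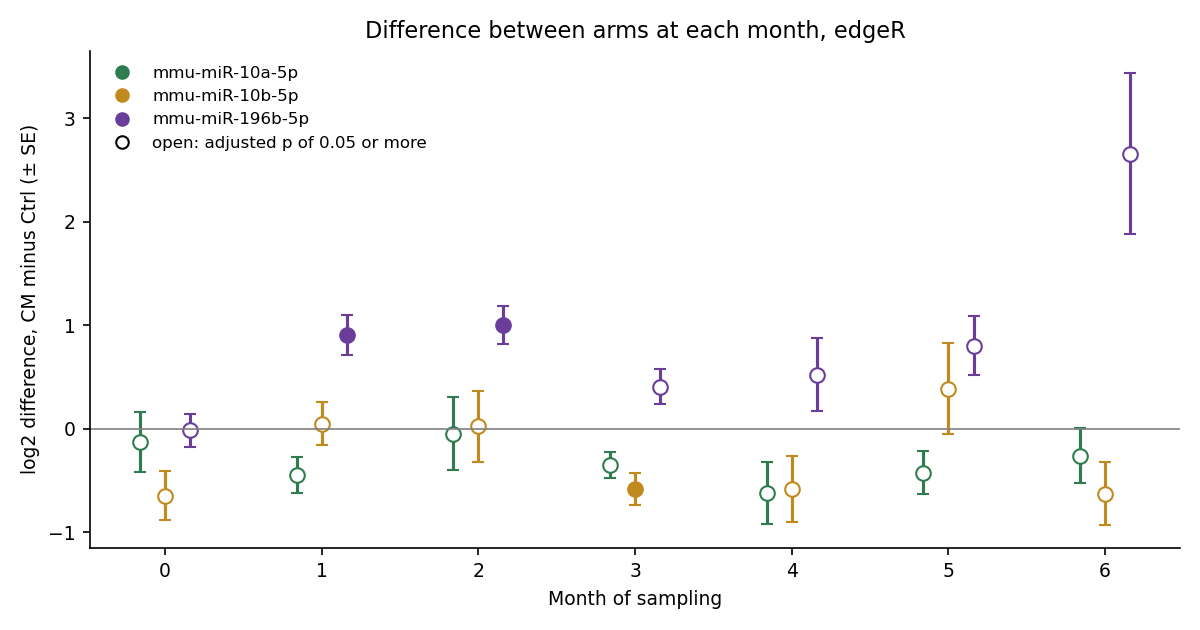
Log2 difference between CM and Ctrl libraries (vertical axis, with the SE of the edgeR fit) at each month of sampling for miR-10a-5p, miR-10b-5p and miR-196b-5p. Filled points passed the adjusted threshold, which holds for miR-196b-5p at months 1 and 2 and for miR-10b-5p at month 3, and the largest value, 2.66 at month 6, has the widest error. None of these 3 calls held with the G number in the fit, where few G numbers held both arms.

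When each mouse was given one value, its mean log2(CPM + 1) over months 1 to 6, miR-196b-5p averaged 7.84 ± 0.48 (SD, n = 7) in CM mice and 7.16 ± 0.19 (SD, n = 7) in Ctrl mice. The CM values were 7.42, 7.48, 7.49, 7.77, 7.79, 8.12 and 8.79, and the Ctrl values 7.03, 7.05, 7.05, 7.07, 7.07, 7.38 and 7.49. Of the 7 CM mice 5 exceeded every Ctrl value, with mouse 3338 (CM) and mouse 3350 (Ctrl) equal as rounded. The difference was 0.68 ± 0.18 (SE, limma adjusted p = 0.00969), and an exact two-sided permutation test of this miRNA alone gave p = 0.00175. Of all miRNAs, 37.1% of 496 were called in this comparison. The difference stayed called when either mouse of the pair with doubtful labels, or any other mouse, was left out, with 0.52 as the smallest value, without mouse 3341.

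For the miR-10 members the mouse means differed less. miR-10a-5p averaged 12.81 ± 0.18 (SD) in CM and 13.09 ± 0.36 (SD) in Ctrl mice, a difference of −0.28 ± 0.14 (limma adjusted p = 0.139; exact permutation p = 0.088, n = 7 per arm). Without Ctrl mouse 3349 the difference was −0.40 and was called (adjusted p = 0.0111). A fit over all libraries of months 1 to 6 with month and G number as terms also called it, at −0.36 (adjusted p = 0.00187). That fit called 244 miRNAs, against 184 over the mouse means, and takes several libraries of a mouse as independent. miR-10b-5p differed by −0.22 ± 0.15 (adjusted p = 0.253; exact permutation p = 0.184, n = 7 per arm), and miR-196a-5p by 0.08 with an exact permutation p of 0.796 (n = 7 per arm). The passenger strand mmu-miR-10a-3p, from the same hairpin as miR-10a-5p, differed by 0.05 ± 0.13 (adjusted p = 0.772).

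The sexes were unevenly divided, with 4 female CM and 2 female Ctrl mice against 3 male CM and 5 male Ctrl mice. For miR-196b-5p the difference of mouse means was 0.53 in females and 0.61 in males. For miR-10a-5p it was 0.21 in females and −0.58 in males, and this contrast was not tested. The female value rests on 2 Ctrl mice, 3349 at 12.39 and 3350 at 13.01, against a female CM mean of 12.91. Mouse 3349 is the one whose month 2 library stood apart. The G numbers of the titles were unevenly spread over the arms as well, since at months 1, 2 and 3 both arms shared 3, 2 and 1 of the 7 G numbers. Within G numbers over months 1 to 6, the mean of CM libraries exceeded that of Ctrl libraries in miR-196b-5p in 6 of 7. The largest difference was 1.85 on the log2 scale, and the seventh G number gave 0.0. These means pool libraries of different months and several libraries of the same mice. The value of 1.85 came from G number 3, which held the month 6 library of CM mouse 3341 at 4455 CPM. For miR-10a-5p the CM libraries were higher in 1 of 7, with values from −0.94 to 0.18, and for miR-10b-5p in 3 of 7, from −0.68 to 0.26. With the G number in the fit the 3 monthly differences that had been called were 0.63 and 1.31 for miR-196b-5p at months 1 and 2 and −0.73 for miR-10b-5p at month 3.

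Each mouse also served as its own reference at month 1. miR-196b-5p changed from month 0 to month 1 by 0.197, 0.445, 0.475, 0.902, 0.965, 1.087 and 1.137 on the log2(CPM + 1) scale in the 7 CM mice. In the Ctrl mice the changes were −0.689, −0.582, −0.564, −0.001, 0.061, 0.276 and 0.404. All 7 CM mice thus went up, and 6 exceeded every Ctrl mouse. The change differed between arms by 0.90 ± 0.23 (SE, limma adjusted p = 0.0478; exact permutation p = 0.00291, n = 7 per arm), in a comparison in which 5.61% of 481 miRNAs were called. The call sits at the threshold and was lost in 12 of 14 fits that left out 1 mouse, with adjusted p up to 0.101, while the value stayed between 0.81 and 0.99.

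The mean change of miR-10b-5p was also higher in CM mice, without passing the threshold. Its level differed between the arms by −0.65 at month 0 and by 0.05 at month 1, so CM mice started lower and did not end above Ctrl mice. Its changes were −0.15, 0.24, 0.25, 0.29, 0.82, 1.33 and 1.35 in CM mice and −0.83, −0.39, −0.34, −0.10, −0.08, 0.08 and 0.17 in Ctrl mice. In 6 CM mice the change exceeded that of every Ctrl mouse, with a difference of 0.805 ± 0.259 (adjusted p = 0.0829; exact permutation p = 0.00524, n = 7 per arm). The largest changes were those of mice 3334 and 3368, whose month 0 libraries were the lowest of that month for this miRNA. miR-10a-5p differed in its change by −0.29 ± 0.29 (adjusted p = 0.574).

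**Figure D3:**
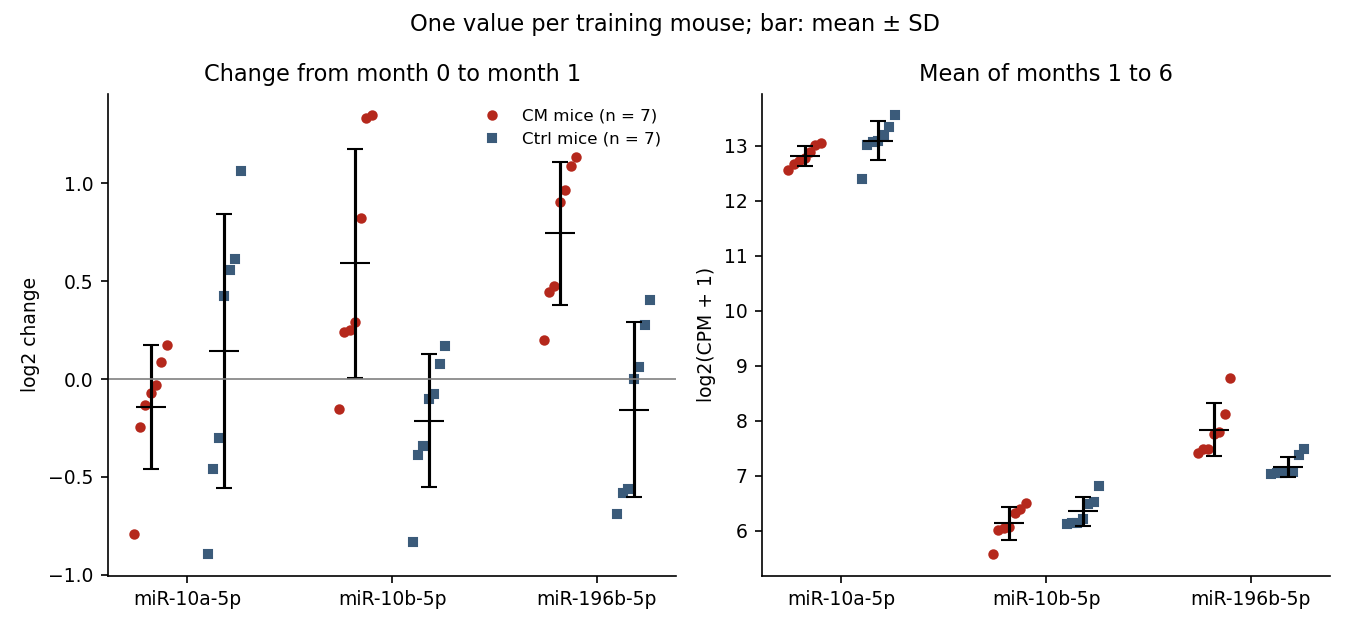
One value per training mouse for miR-10a-5p, miR-10b-5p and miR-196b-5p, as the log2 change from month 0 to month 1 (left) and as mean log2(CPM + 1) over months 1 to 6 (right), with the mean and SD of each arm of 7 mice. CM mice (red circles) lie higher on average than Ctrl mice (blue squares) in miR-196b-5p on both panels, by 0.90 and 0.68. The change of miR-10b-5p differs by 0.805 and was not called (limma adjusted p = 0.0829), with CM mice lower at month 0.

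Erythroid miRNAs and some of the stem and progenitor miRNAs differed at the same month. At month 1 all 5 erythroid miRNAs were called higher in CM mice, with a median log2 difference of 2.73 against −0.10 for all miRNAs, where 27.5% were called. Their summed level was 39900 to 492000 CPM with a median of 46700 in CM libraries, and 21700 to 59900 CPM with a median of 30400 in Ctrl libraries. The arms overlapped, and 3 CM libraries, those of mice 3336, 3368 and 3341 at 492000, 284000 and 75500 CPM, exceeded every Ctrl library. Without mouse 3336, 4 of the 5 were called and their median was 2.31, where 19.8% of 480 miRNAs were called. Of 9 miRNAs named for stem and progenitor cells, 4 were higher and 1 lower, with a summed level of 4230 to 6980 CPM in CM against 3230 to 5000 CPM in Ctrl. Among them mmu-miR-126a-3p, the subject of the study, was higher by 1.68 ± 0.17 (adjusted p = 1.05e-05). Of the 4 lymphocyte and the 4 myeloid miRNAs none was called, at adjusted p under 0.05. Of 8 tested stromal, muscle or epithelial miRNAs, 2 were higher, with summed levels of 1660 to 3550 CPM in CM and 1190 to 2540 CPM in Ctrl. At month 2, where 13.5% of all miRNAs were called, 3 of the 5 erythroid and 3 of the 9 stem and progenitor miRNAs were called higher. At month 3 the counts were 4 and 2, where 22.0% were called, so that 2 of 9 is at the background. Over the mouse means they were 4 and 5, where 37.1% were called. The part of these cell types in the levels of miR-196b-5p was not tested.

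The next question was how the members stood at the end of each CM mouse's series, since CM mice left the series at different times. The last libraries of the 7 CM mice, taken between month 4 and month 10, were compared with month 0 of the same mice. The main fit did not pair the libraries of a mouse. In it miR-196b-5p was called higher, with great differences between mice, and neither miR-10 member was called. The call of miR-196b-5p was lost once the libraries were paired by mouse.

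miR-196b-5p went from 161.2 to 4455 CPM in mouse 3341 at month 6, from 167.2 to 2104 in mouse 3336 at month 7 and from 101.6 to 677.7 in mouse 3370 at month 9. It went from 123.7 to 332.3 CPM in mouse 3368 at month 10 and from 89.4 to 124.6 in mouse 3357 at month 4. In 2 mice it went down, from 112.3 to 86.1 CPM in mouse 3338 at month 4 and from 115.7 to 26.9 in mouse 3334 at the time labelled T6p5, read as month 6.5. The last libraries thus held both the highest and the lowest level of this miRNA in the training cohort. The lowest was that of mouse 3334, whose labels are in doubt. By median Spearman correlation with the other libraries, the last libraries of mice 3334 and 3338 were lowest (0.819 and 0.848). Those of mice 3341 and 3336 were low too (0.859 and 0.877). The fitted log2 difference was 3.31 ± 0.89 (SE, edgeR adjusted p = 0.0099), and 39.0% of 446 miRNAs were called. It was 2.37 without mouse 3341 (adjusted p = 0.0421). With the mouse as a replicate block it was 1.66 and not called (adjusted p = 0.14). The mean of the changes of the 7 mice on the log2(CPM + 1) scale was 1.51.

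Earlier libraries show when these levels changed. In mouse 3336 miR-196b-5p was at 326.2 CPM at month 6, 451.0 at month 6.5 and 2104 at month 7. In mouse 3341 it was at 426.4 CPM at month 5 before 4455 at month 6, and in mouse 3370 at 221.2 CPM at month 8 before 677.7 at month 9. In each of these 3 mice the high level was that of the last library.

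The miR-10 members took no common course in the same libraries. miR-10a-5p went down in 4 mice, most in mouse 3334 from 13460 to 2140 CPM, and up in 3, with a log2 difference of −0.23 ± 0.33 (adjusted p = 0.592). miR-10b-5p also went down in 4 and up in 3, from a mean of 60.4 ± 22.1 to 47.5 ± 25.1 CPM (SD, n = 7), with a difference of −0.25 ± 0.32 (adjusted p = 0.566). In mice 3336 and 3341, which had the most miR-196b-5p at the end, miR-10a-5p went from 6862 to 3360 and from 5506 to 3999 CPM. miR-196a-5p stayed at 0 to 7 counts in all 7 last libraries.

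**Figure D4:**
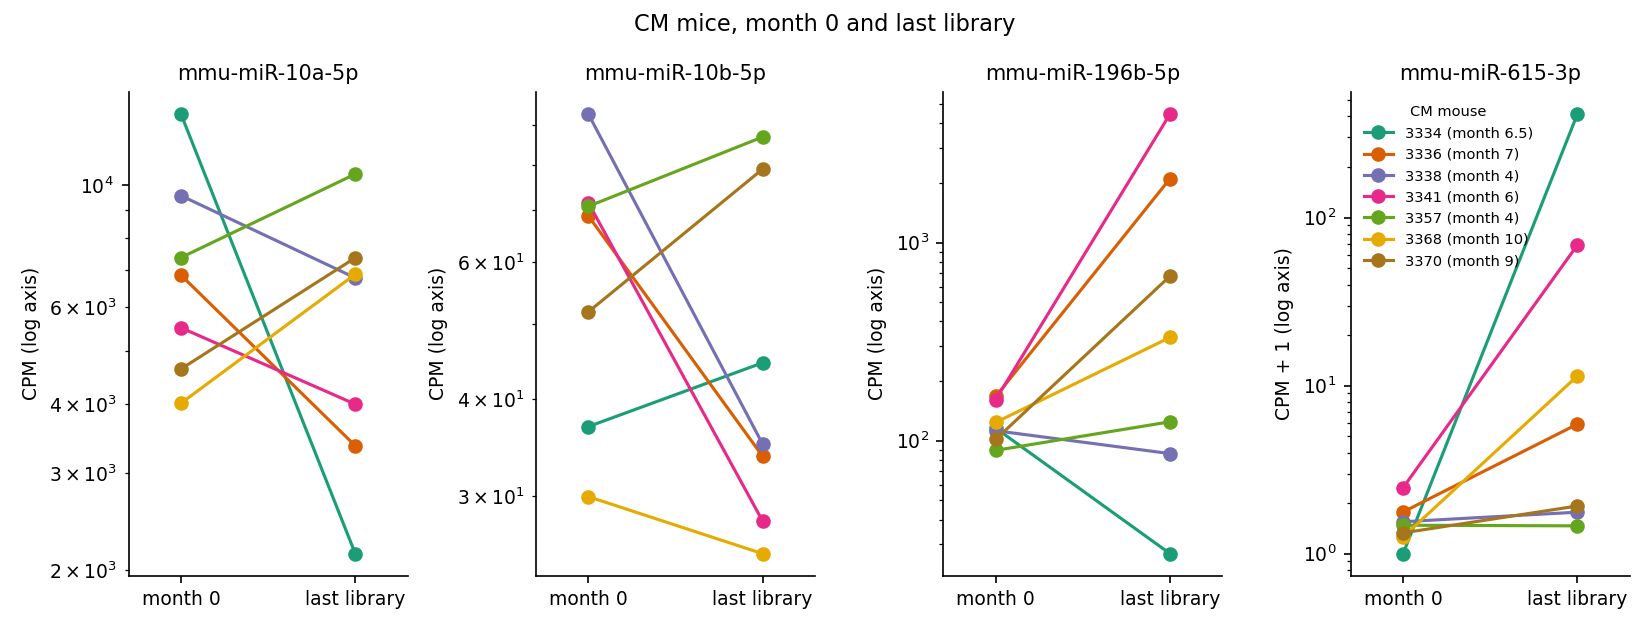
CPM at month 0 and in the last library of each CM mouse (log axes, CPM + 1 for miR-615-3p), with one colored line per mouse and its last month in the legend. miR-196b-5p spreads from between 89.4 and 167.2 CPM to between 26.9 and 4455 CPM, miR-615-3p reaches 413.0 CPM in mouse 3334, and lines of both miR-10 members cross in both directions.

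Other mature miRNAs of the Hox clusters were mostly near the counting limit. Of 7 such miRNAs only miR-10a-3p passed the filter in the training comparisons, in 12 of 12, and it was called in none. miR-10b-3p, miR-196a-1-3p, miR-196a-2-3p and miR-196b-3p reached at most 12 counts. mmu-miR-615-3p, which is encoded in the HoxC cluster, had a median of 0.914 CPM but high single libraries. It reached 413.0 CPM in the last library of mouse 3334, where miR-196b-5p was lowest, 145.0 CPM in the library labelled Ctrl mouse 3335 month 6 and 67.8 CPM in the last library of mouse 3341. The first and the second of these come from the mice with doubtful labels.

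In the last libraries the lymphocyte list was lower than at month 0 and markers of progenitor cells differed between mice. Of the 4 lymphocyte miRNAs 3 were called lower than at month 0, and their summed level was 9570 to 58500 CPM against 29800 to 69800 CPM at month 0. Of the 9 stem and progenitor miRNAs 2 were called higher, and of the 4 myeloid miRNAs 2 higher and 1 lower. Of the 5 erythroid miRNAs 1 was higher and 1 lower, and of 8 tested non-blood miRNAs 1 was lower. Since 39.0% of 446 miRNAs were called in this comparison, the stem and progenitor and non-blood counts lie below the background and the erythroid count is close to it. The lymphocyte list was lower in Ctrl mice at month 6 too, with a median log2 difference of −0.539 from month 0 and 1 of 4 called. Relative to that Ctrl change none of the 4 was called in CM mice, with a median of −0.29 against −0.20 for all miRNAs. The 9 stem and progenitor miRNAs had a median log2 difference of −0.374 from month 0 in the last CM libraries, against −0.06 for all miRNAs. Unlike this median, miR-126a-3p of the same list went up in all 7 mice. That included mice 3338 and 3334, with 1861 and 2552 CPM, in which miR-196b-5p went down. Whether the cell makeup accounts for the levels of the Hox cluster miRNAs was not tested.

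Ctrl mice served as the comparison for time without the fusion. Month 0 lies ahead of the poly(I:C) doses that both arms received, so time and poly(I:C) cannot be told apart here. From month 0 to month 6 miR-196b-5p rose in all 7 Ctrl mice, from a mean of 123.7 ± 21.9 to 180.7 ± 32.3 CPM (SD, n = 7), with a log2 difference of 0.56 ± 0.16 (adjusted p = 0.0223) where 20.5% of 474 miRNAs were called. The call was lost without mouse 3339 (0.55, adjusted p = 0.078) or mouse 3350 (0.51, adjusted p = 0.0888). In later Ctrl libraries from month 7 to month 10 the means were 203.0, 212.8, 222.0 and 207.5 CPM. miR-10a-5p and miR-10b-5p were not called, at −0.13 ± 0.28 and −0.31 ± 0.25 (adjusted p = 0.8 and 0.416). Of the 9 stem and progenitor miRNAs 3 were higher at month 6.

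Relative to this change in Ctrl mice, the change up to the last CM library was larger by 0.97 ± 0.82 for miR-196b-5p, which was not called (adjusted p = 0.401; exact permutation p = 0.31, n = 7 per arm), while 17.7% of 457 miRNAs were and the median over all of them was −0.20. The spread tells the mice apart more than the mean does. The change had an SD of 2.39 among CM mice and 0.19 among Ctrl mice, with 4 CM mice above and 2 below every Ctrl mouse. The 2 below were mice 3334 and 3338, whose last libraries were the least like the others. Without mouse 3341 the difference was 0.43, and without mouse 3334 it was 1.57. The times also differ, since CM mice were last sampled at months 4 to 10 and Ctrl mice were taken at month 6. miR-10a-5p and miR-10b-5p changed by −0.22 ± 0.55 and −0.01 ± 0.38 relative to Ctrl mice (adjusted p = 0.787 and 0.984).

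miR-196a-5p, the rarest member, was near the counting limit in most libraries and above it in single mice of both arms. In Ctrl mouse 3350 it was at 3.19, 6.39, 5.60, 6.19, 7.41, 10.7 and 12.1 CPM in the 7 libraries from month 3 to month 9, on 20 to 42 counts. In Ctrl mouse 3335 it was at 4.89 and 8.68 CPM at months 7 and 8, and in CM mouse 3334 at 5.33 and 11.2 CPM at months 5 and 6, on 19 to 78 counts. These mice were of both arms, and the pair with doubtful labels was among them. All other libraries were at or under 2.44 CPM. Over the training libraries miR-196a-5p correlated with miR-196b-5p at a Pearson r of 0.198, although they share the seed.

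Among 331 miRNAs with a mean of at least 10 CPM, those with a pattern most like that of each member were found by Pearson's r of log2(CPM + 1) over all training libraries. These values are descriptions, since libraries share mice. For miR-10a-5p they were miR-10a-3p (0.696), miR-361-5p (0.694) and miR-155-5p (0.633), and for miR-10b-5p miR-190b-5p (0.732), miR-155-5p (0.73) and miR-146a-5p (0.703). For miR-196b-5p they were miR-674-5p (0.57), miR-193b-3p (0.487) and miR-151-3p (0.484), and its r with miR-126a-3p was 0.405. For miR-196a-5p no value exceeded 0.355, that of miR-99b-5p, followed by miR-195a-5p (0.341) and miR-99b-3p (0.325). Between the families r was −0.206 for miR-10a-5p with miR-196b-5p and −0.252 for miR-10b-5p with miR-196b-5p.

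The validation cohort allows a comparison of the members at point 5 only. Whole reads were recovered from the deposited values, and the 12 libraries of point 5 held 1645456 to 5445215 reads, whereas the other libraries held 1744 to 76906. In RPM, the recovered reads scaled to library size without TMM, miR-10a-5p at point 5 was at 6727 ± 1838 in CM and 8926 ± 2240 in Ctrl mice, miR-10b-5p at 105.4 ± 38.7 and 98.95 ± 28.35, and miR-196b-5p at 103.7 ± 89.5 and 95.6 ± 40.1 (SD, n = 6 per arm). The order of the 3 levels at the top was thus led by miR-10a-5p as in the training cohort, whereas miR-10b-5p and miR-196b-5p overlapped. For miR-196a-5p at most 8 reads were found in a CM library and at most 19 in a Ctrl library, and 1 CM library had 0.

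On the deposited values no member was called between arms at point 5. The deposited scaling was uneven between these libraries, which adds to the spread of the tested values. For miR-10a-5p, CM mouse 2718 was at 29180 deposited CPM and 4833 RPM, and CM mouse 2700 at 150200 deposited CPM and 9240 RPM. limma called none of 930 miRNAs there (0.0%), edgeR on the recovered reads called none either, and 54 had an unadjusted p under 0.05 in limma. The log2 differences were −0.345 ± 0.346 for miR-10a-5p, 0.12 ± 0.38 for miR-10b-5p, −1.14 ± 0.75 for miR-196a-5p and −0.004 ± 0.457 for miR-196b-5p, with adjusted p of 0.955, 0.982, 0.899 and 0.999. Exact permutation p values were 0.398, 0.818, 0.201 and 0.994 (two-sided, n = 6 per arm). miR-196b-5p was at 54.7, 61.6, 64.9, 74.01, 81.75 and 285.3 RPM in CM mice, and at 60.33, 62.96, 88.39, 94.2, 96.5 and 171.0 in Ctrl mice. A single CM mouse, 2684, stood above all Ctrl mice, and in the same library miR-126a-3p was at 2798 RPM.

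**Figure D5:**
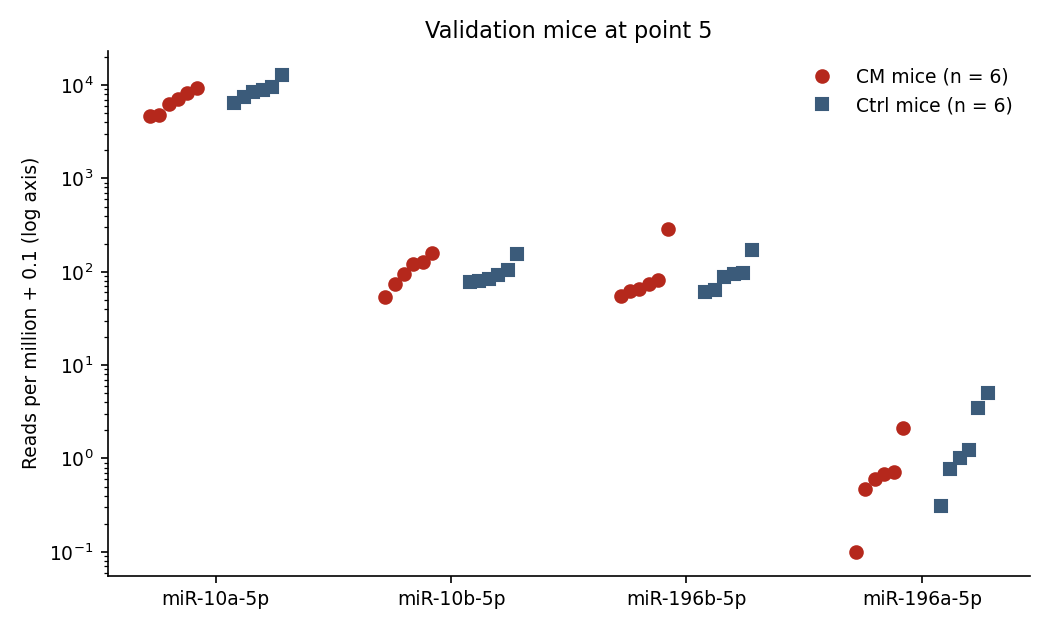
RPM + 0.1 (log axis) of the 4 miRNAs in the 12 libraries of validation point 5, CM in red circles and Ctrl in blue squares, 6 mice per arm. The arms overlap for each miRNA, and 1 CM library stands out in miR-196b-5p at 285.3 RPM.

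Outside point 5 the depth did not allow a comparison. There 3 reads correspond to between 39.0 and 1720 RPM. In 83 libraries of points 1 to 4, 6 and 7 with recovered reads, miR-10a-5p was seen in 29, with at most 4 reads, miR-10b-5p in 4, miR-196b-5p in 4 and miR-196a-5p in 0, which allows up to 3 reads per library. miR-10a-5p nevertheless passed the filter at points 1, 4 and 7, where its log2 differences were −0.495 ± 1.58, −0.494 ± 1.425 and 0.972 ± 2.149 (adjusted p = 0.915, 0.949 and 0.908), and limma called 0.0% of the miRNAs tested at each of these points, with 18, 20 and 8 at an unadjusted p under 0.05. The 5 libraries of point L, all of CM mice, held more. miR-10a-5p had 8, 5, 7, 15 and 0 reads there and miR-10b-5p had 2, 7, 5, 17 and 3, in libraries of 2547 to 16945 reads, while miR-196b-5p had 0, 0, 0, 0 and 3. There was no Ctrl library at that point. miR-10b-5p, which in training libraries was at most 3.21% of miR-10a-5p, thus had more reads than miR-10a-5p in 3 of these 5 libraries.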

How the data were processed

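Small RNA was sequenced from PBMC of 53 CM and 76 Ctrl training libraries and 60 CM and 42 Ctrl validation libraries. Per the study's methods, reads were trimmed with cutadapt, aligned to mm9 with Bowtie and assigned to mature miRNAs of miRBase, whereas the submitters' processing notes name GRCm38, so that the build is unsure. The authors deposited whole-number counts for training libraries. For both cohorts the authors deposited signal values, CPM after TMM scaling, from which whole reads were recovered (100% of values within 0.01 reads). The training counts were filtered with filterByExpr, scaled by TMM and tested with edgeR 4.0.16's quasi-likelihood test. Values per mouse were tested with limma 3.58.1 on log2(CPM + 1), and so was the validation CPM with a minimum of 1. Fold changes there are on that scale. DESeq2 1.42.0 in R 4.3.3 was an alternative. Exact permutation tests and tables used Python 3.11.15 with scipy 1.17.1. Benjamini-Hochberg adjusted p under 0.05 was called, over all miRNAs tested. The edgeR, limma and DESeq2 tests of the arms were tried on counts simulated from the means of month 1.

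Replicates were separate mice. In the comparisons over time, libraries at both times came from the same mice, which therefore pair them. The main edgeR fits over time left this pairing out, and the fits with the mouse as a replicate block were alternatives. The correlation of their deviations from the group means ran from −0.178 to 0.143 in CM and from −0.142 to 0.134 in Ctrl mice. The named miRNAs were the 4 members, the other Hox cluster miRNAs, the 3 most alike to each member and miR-126a-3p. Other miRNAs named came from lists of cell type markers. The members and lists were chosen with earlier results of these data known.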

Additional observations from a re-analysis of the deposited data

Results flagged for a closer look

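Of 80 groups of 5 to 7 libraries, 12 held a library that lay far from the rest by Dixon's test, where chance gives about 1 in 20 groups. In the Ctrl library of mouse 3349 at month 2, the shallowest of the training cohort, miR-10a-5p was lowest at 1097 CPM and miR-10b-5p at 14.73 CPM. miR-10b-5p was highest in the same mouse at month 10 with 83.28 CPM. At month 6 miR-10a-5p was highest in Ctrl mouse 3342 with 12920 CPM, and miR-196b-5p was lowest in Ctrl mouse 3346 with 117.4 CPM and highest in CM mouse 3341 with 4455 CPM.

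miR-196a-5p was highest in Ctrl mouse 3350 at months 5, 6 and 9, with 5.597, 6.194 and 12.12 CPM, and in Ctrl mouse 3335 at month 2 with 0.9554 CPM, which is near the counting limit. At validation point 5 miR-10a-5p was highest in Ctrl mouse 2683 with 159400 deposited CPM, and miR-10b-5p was lowest in CM mouse 2718 with 326.6 deposited CPM, in the library with the fewest reads of that point. In RPM these values were 12940 and 54.09, and the next CM library of miR-10b-5p was at 74.17.

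The change of miR-196b-5p from month 0 to month 1 differed between the arms by 0.901 on the log2 scale (limma adjusted p = 0.0478), higher in 7 of 7 CM mice and in 3 of 7 Ctrl mice.

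Reads above the limit of 3 were found outside validation point 5, which enters no comparison of the members that depth allows. CM mouse 2700 had 4 reads of miR-10a-5p at point 4. At point L miR-10a-5p had 8 reads in mouse 2690, 5 in mouse 2708, 7 in mouse 2718 and 15 in mouse 2719, and miR-10b-5p had 7 reads in mouse 2708, 5 in mouse 2718 and 17 in mouse 2719. No Ctrl library of point L was available for comparison.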

How the results depend on the processing

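The called differences of miR-196b-5p at months 1 and 2 and over the mouse means, and that of miR-10b-5p at month 3, were called in every fit that left out 1 mouse. With G number as a covariate the 3 monthly differences became 0.633, 1.314 and, for miR-10b-5p, −0.733, none called. The difference of miR-196b-5p over months 1 to 6 was still called in a fit of all libraries with month and G number (0.855), which takes libraries of a mouse as independent. That fit called 244 miRNAs, against 184 over the mouse means. With G number calls over all miRNAs went from 130 to 10 at month 1, 65 to 0 at month 2 and 100 to 6 at month 3. Both arms shared only 3, 2 and 1 of the 7 G numbers at these months, which limits these fits. At month 4 no G number held both arms, so that G number could not be fitted. With the mouse as a replicate block, miR-196b-5p in the last CM libraries was 1.656 and not called, and the block changed no other call. The cause was not tested in any of these.

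Calls came or went elsewhere. miR-196b-5p was called at month 5 without mice 3334 and 3335 (1.02), where 53 of 511 miRNAs were. Its change to month 1 was not called with raw library sizes (0.772), without the filter (0.901) or without those mice (0.882). The Ctrl change of miR-196b-5p was not called without the filter (0.596). Without CM mouse 3338, miR-10a-5p was called at month 1 (−0.495, adjusted p = 0.0482) and miR-196b-5p at month 3 (0.487, adjusted p = 0.0468). miR-10a-5p was called at month 3 by DESeq2 (−0.372) and over all libraries with month and G number (−0.36). These fits called 144 and 244 miRNAs.

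Directions turned only for differences that were not called. With raw library sizes these were miR-196b-5p at month 0 (0.002), miR-10b-5p at month 1 (−0.057) and miR-10a-5p at month 2 (0.01). With G number they were miR-196b-5p at month 0 (0.19) and miR-10b-5p at months 1 (−0.049), 2 (−0.057) and 5 (−0.041). With sex they were miR-10b-5p at month 1 (−0.037), miR-10a-5p at month 2 (0.128) and miR-196b-5p at validation point 5 (0.082), where edgeR on recovered reads gave 0.368. Without mice 3334 and 3335 they were miR-10a-5p and miR-10b-5p at month 2 (0.001 and −0.004) and the change of miR-10a-5p to the last library (0.095). On deposited CPM the changes of miR-10a-5p and miR-10b-5p to the last library were 0.039 and 0.155.

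Leaving out 1 mouse at a time gave these ranges. For miR-196b-5p they were −0.145 to 0.068 at month 0, 0.321 to 0.487 at month 3, 0.812 to 0.994 for the change to month 1, 0.511 to 0.634 for Ctrl month 6 and −0.416 to 0.309 at validation point 5. For miR-10a-5p they were −0.495 to −0.324 at month 1, −0.246 to 0.066 at month 2, −0.399 to −0.206 over the mouse means, −0.44 to 0.156 for the change to the last library, −0.422 to 0.099 for the last CM libraries and −0.509 to 0.108 for Ctrl month 6. For miR-10b-5p they were −0.068 to 0.136 at month 1, −0.166 to 0.135 at month 2, −0.413 to 0.641 at month 5, −0.175 to 0.185 for the change to the last library and −0.054 to 0.477 at validation point 5. Fits on recovered training reads were chosen after seeing the data. Depth limits miR-196a-5p in training libraries and every member outside validation point 5.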

Other observations

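The passenger strand miR-10a-3p amounted to 0.237% to 1.52% of miR-10a-5p in the training libraries, with a median of 0.741%. Its level had a median of 54.2 CPM.

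In the last library of CM mouse 3334, miR-615-3p had 1335 counts against 0 at month 0, while both strands of the miR-10a hairpin were at 0.159 and 0.161 times their month 0 level and miR-196b-5p at 0.239 times. miR-615-3p is printed here because it was, among the listed Hox cluster miRNAs outside the members, the one with the highest single library; its seed is in capitals.

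mmu-miR-615-3p: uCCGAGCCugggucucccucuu

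It lies at chr15:103014969-103014990 on the plus strand of GRCm38.p6, in the HoxC cluster with one of the genes of miR-196a-5p. At validation point 5 it had 38 reads in CM mouse 2684, the mouse with the most miR-196b-5p, and 1 to 10 reads in the other CM mice.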
